A study of Homo sapiens with 12 samples.

Results

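The genes described here are the S100 proteins and the annexins, calcium-binding protein families whose members bind each other, in HT29, a human colon cancer cell line, during exposure to methotrexate. The members were chosen by gene symbol alone, as probe sets naming a single gene that is S100A with a number, S100B, S100G, S100P, S100Z or ANXA with a number. This gave 30 genes, 19 S100 genes and 11 annexins, of the 18377 genes tested, and each of them had 1 probe set. S100PBP, S100A7A, pseudogenes and probe sets naming several genes were not members. ANXA8 was left out because its probe sets also name ANXA8L1.

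The 4 groups of 3 biological replicates were untreated control cells, taken as 0 h, and cells after 8, 24 and 48 h with 70 nM methotrexate. All 4 groups were the same cell line, which the submitters' design text calls sensitive to methotrexate, an antifolate that blocks dihydrofolate reductase, and total RNA was hybridised to Affymetrix human gene arrays. The controls were not matched in time to the treated cells, so treatment and time in culture cannot be told apart. The deposited values are log2 ratios to the median of the 3 control arrays of each probe set, so the values below are differences, absolute levels are unknown, and 1 control array of each gene reads 0.

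S100 proteins are small proteins with EF-hand motifs that mostly form dimers and, once calcium binds, open a surface that grips target proteins. Annexins bind acidic phospholipids of membranes in the presence of calcium through a folded core of repeats, and take part in membrane traffic, membrane repair and control of the actin cortex. The families meet in stable complexes, such as annexin A2 with S100A10 and annexin A1 with S100A11. In the gut epithelium annexins A2, A4 and A13 are found at cell surfaces and in secretory traffic, and several S100 proteins are used as markers of colorectal carcinoma.

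Over whole arrays, replicate 3 at 48 h stood apart from its group, with a root mean square difference over genes of 0.208 and 0.184 (log2) from the other 48 h arrays, against 0.094 to 0.143 for the other replicate pairs. The labelled cell type could not be checked by marker levels, since levels are lost. Of 12 colon epithelial markers, 1 rose and 1 fell at 8 h, 2 rose and 1 fell at 24 h, and 1 rose and 1 fell at 48 h. This was 16.7%, 25.0% and 16.7% called, against 24.2%, 16.7% and 25.3% of all genes. Among these markers KRT20, a keratin of mature colon epithelium, was higher by 0.53 at 24 h (SE 0.05) and by 0.51 at 48 h (SE 0.05). KRT19 was higher by 0.26 at 8 h and by 0.41 at 24 h (SE 0.08 each), and its 8 h call was lost without any 1 control or 8 h array. LGALS4, a gut galectin, fell by 0.64, 0.28 and 0.37 at 8, 24 and 48 h (SE 0.06 each). None of 9 myeloid, 8 fibroblast and 5 epidermal keratinocyte markers was called at any time against control by limma. Of all genes 24.2%, 16.7% and 25.3% were called at 8, 24 and 48 h. At an unadjusted p under 0.05, 1 fibroblast marker was higher at 24 h and 1 myeloid marker lower at 48 h.

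Of the 30 genes, 13 were called in at least 1 comparison with control (43.3%, against 39.2% of all genes), meaning a Benjamini-Hochberg adjusted p under 0.05 over all 18377 genes in limma. By the same threshold 11 differed among the 4 groups by the moderated F test, in which 38.8% of all genes were called. After 8 h 4 members rose and 5 fell, 9 of 30, where 24.2% of all genes were called, 12.1% higher and 12.0% lower. After 24 h 7 rose and 2 fell, or 6 and 3 with each array centred on its median, and the background was 16.7%, 8.69% higher and 8.02% lower. After 48 h 7 rose and 2 fell, and the background was 25.3%, 13.0% higher and 12.3% lower. The median change of the members was 0.01 at 8 h, 0.07 at 24 h and 0.03 at 48 h, beside 0.02, 0.02 and 0.01 for all genes at the same times. The 3 treated arrays did not overlap the 3 control arrays for 13 members at 8 h (43.3%, against 37.9% of all genes), 17 at 24 h (56.7% against 33.0%) and 15 at 48 h (15 of 30, against 35.7%). The 3 comparisons share the control arrays. With array weights, which rest the 48 h values mostly on replicate 2, 14 members were called at 24 h, 10 higher and 4 lower (33.1% of all genes called), and 19 at 48 h, 10 higher and 9 lower (40.6% of all genes called).

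**Figure D1:**
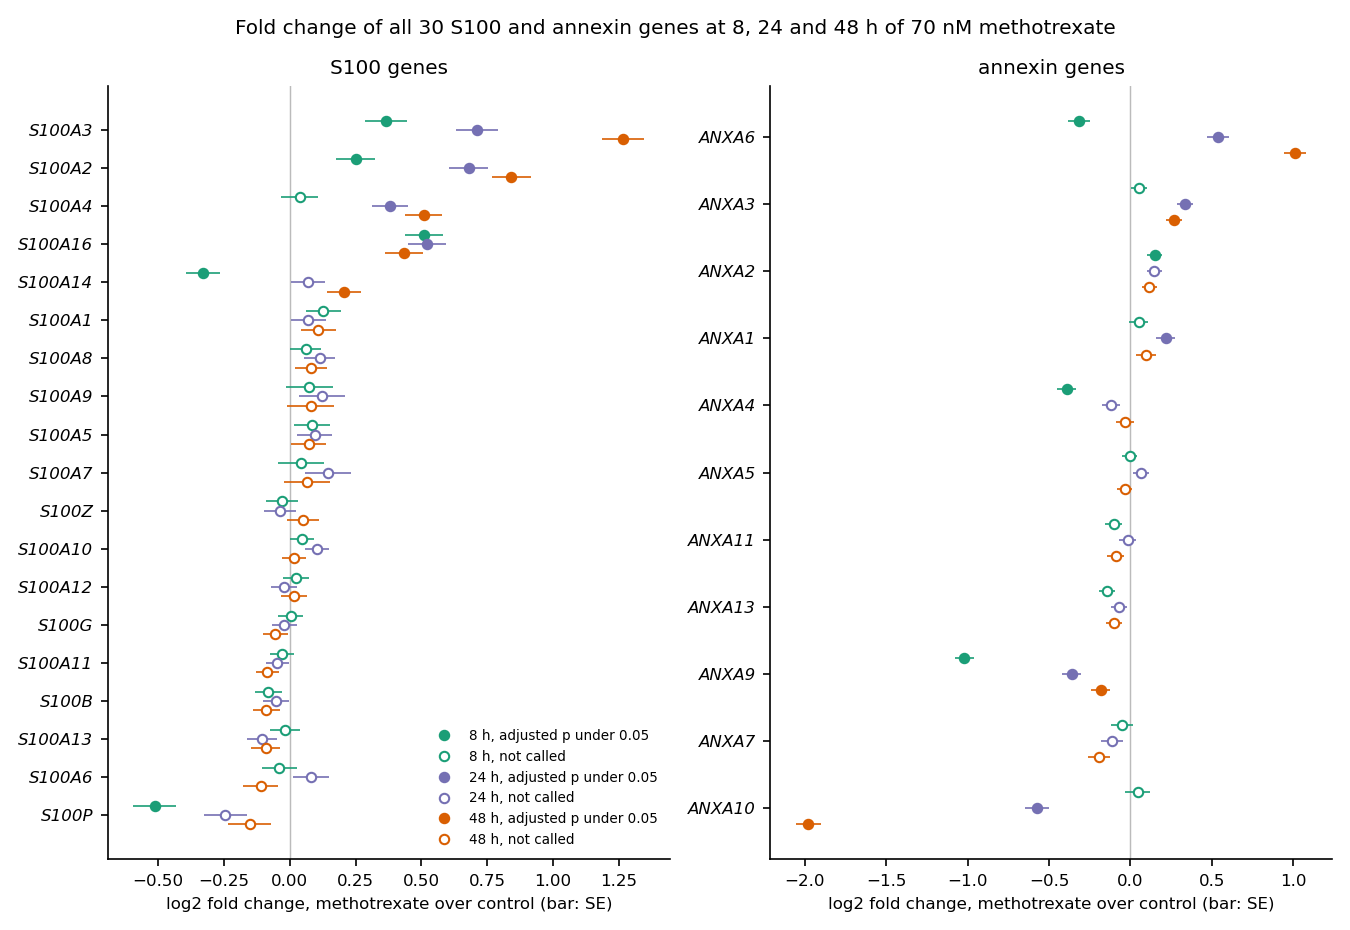
Log2 fold change of methotrexate over control for each of the 19 S100 genes (left) and 11 annexins (right), with limma's SE as bars and genes ordered by their 48 h value, and one row of 3 points per gene for 8, 24 and 48 h. Filled points are called; S100A3 and ANXA6 lie highest at 48 h and ANXA10 lies lowest, while 17 genes have open points only.

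S100A3, a cysteine-rich member known from the hair cuticle, showed the largest rise of the family. Its values were -0.17, 0 and 0.10 on the control arrays, 0.30, 0.34 and 0.39 at 8 h, 0.57, 0.67 and 0.82 at 24 h and 1.35, 1.24 and 1.14 at 48 h. Each later group lay wholly above the one before it. The rise over control was 0.37 (SE 0.08, adjusted p = 0.00432) at 8 h, 0.71 (SE 0.08, adjusted p = 4.45e-05) at 24 h and 1.27 (SE 0.08, adjusted p = 1.80e-07) at 48 h, the last a 2.40-fold change. The further rise of 0.56 between 24 and 48 h was also called (SE 0.08, adjusted p = 0.000797).

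S100A2, an epithelial member found in basal keratinocytes and able to bind p53, gave -0.07, 0.01 and 0 on the control arrays and 0.17, 0.22 and 0.30 at 8 h. At 24 h it gave 0.51, 0.66 and 0.81, and at 48 h 0.90, 0.71 and 0.86. Treated and control arrays did not overlap at any time, whereas the 24 and 48 h arrays did. Its rise was 0.25 at 8 h (SE 0.07, adjusted p = 0.0256), 0.68 at 24 h (SE 0.07, adjusted p = 3.28e-05) and 0.84 at 48 h (SE 0.07, adjusted p = 3.07e-06). The 8 h call was lost without any 1 control array or without 8 h replicate 2 or 3 (adjusted p 0.0519 to 0.103).

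S100A4, which binds non-muscle myosin and is known for its link with metastasis, gave 0.12, -0.07 and 0 on the control arrays and 0.05, 0.10 and 0.01 at 8 h, which overlap. At 24 h it gave 0.49, 0.33 and 0.37, and at 48 h 0.46, 0.45 and 0.67, all above control. The rise was 0.38 at 24 h (SE 0.07, adjusted p = 0.00208) and 0.51 at 48 h (SE 0.07, adjusted p = 0.00014), and the 8 h difference was 0.04 (SE 0.07, adjusted p = 0.793).

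S100A16, a widely expressed member, was higher than control by similar amounts at the 3 times. It gave 0, -0.01 and 0.10 on the control arrays, 0.46, 0.57 and 0.60 at 8 h, 0.58, 0.44 and 0.64 at 24 h and 0.44, 0.35 and 0.61 at 48 h. The 3 treated groups overlapped each other and none overlapped control. The rise over control was 0.51 (SE 0.07, adjusted p = 0.000194) at 8 h, 0.52 (SE 0.07, adjusted p = 0.000255) at 24 h and 0.43 (SE 0.07, adjusted p = 0.000642) at 48 h, and the 48 h values were 0.08 lower than the 8 h values (95% interval -0.24 to 0.08).

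S100A14, an epithelial member, and S100P, first found in placenta and a ligand of the receptor RAGE, fell at 8 h. S100A14 gave 0.16, 0.00 and 0 on the control arrays, -0.17, -0.34 and -0.32 at 8 h, 0.07, 0.08 and 0.21 at 24 h and 0.23, 0.24 and 0.31 at 48 h. Its 8 h arrays lay below control (-0.33, SE 0.06, adjusted p = 0.00209), its 24 h arrays overlapped control (0.07, SE 0.06, adjusted p = 0.574) and its 48 h arrays lay above control (0.21, SE 0.06, adjusted p = 0.0311). The 48 h call against control was lost without control replicate 2 or 3 or without 48 h replicate 2 or 3 (adjusted p 0.0607 to 0.12), whereas the difference between 48 and 8 h was 0.54 (SE 0.06, adjusted p = 3.06e-05).

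S100P gave -0.06, 0.07 and 0 on the control arrays, -0.62, -0.53 and -0.36 at 8 h, -0.11, -0.42 and -0.18 at 24 h and -0.17, -0.18 and -0.09 at 48 h. All treated arrays lay below all control arrays. The fall was called at 8 h (-0.51, SE 0.08, adjusted p = 0.000472), and the difference was -0.25 at 24 h (SE 0.08, adjusted p = 0.0584) and -0.15 at 48 h (SE 0.08, adjusted p = 0.223). It was called at 24 h without 8 h replicate 3, 24 h replicate 1 or 48 h replicate 3 (adjusted p 0.0387 to 0.0454) and with each array centred (0.0433), and at 48 h with array weights (0.0067). Between 8 and 48 h S100P was higher at 48 h by 0.36 (SE 0.08, adjusted p = 0.00401).

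**Figure D2:**
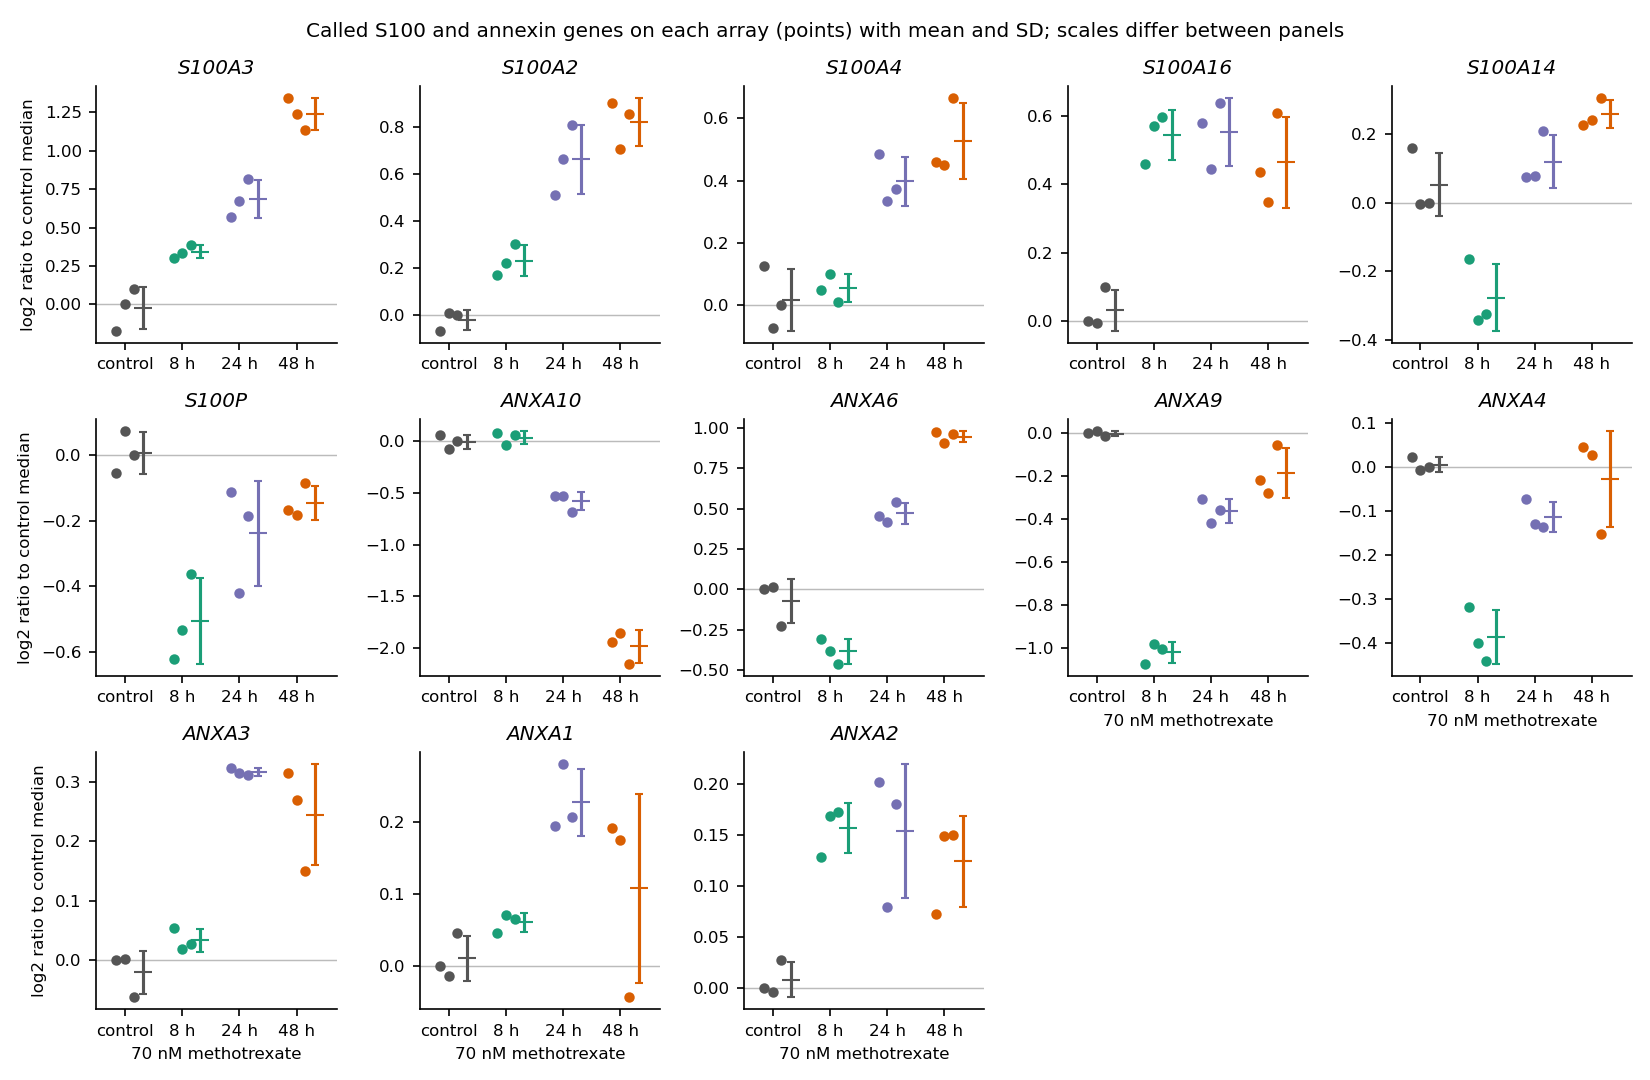
Log2 ratio to the control median on each array (points, in replicate order) for the 13 called genes, with group mean and SD (n = 3) to the right, in control cells and after 8, 24 and 48 h; vertical scales differ between panels. S100A3, S100A2 and ANXA6 reach their highest values at 48 h, ANXA10 its lowest, and ANXA9, ANXA4 and S100P are lowest at 8 h.

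The S100A genes lie together on chromosome 1 (gene order from RefSeq, GRCh38.p14), which holds 15 of the 19 S100 genes. S100A10 and S100A11 stand apart from the other 13, separated from S100A9 by 47 protein-coding genes. Along the 13 genes from S100A9 to S100A1, 5 were called against control, where 39.2% of all genes were called in at least 1 such comparison. At 8 h S100A14 was lower (-0.33), whereas S100A3, S100A2 and S100A16 were higher. The 5 called genes were neighbours, in the order S100A4, S100A3, S100A2, S100A16 and S100A14. The genes on either side of that stretch were not called, S100A5 with 0.08, 0.09 and 0.07 and S100A13 with -0.02, -0.11 and -0.09 at 8, 24 and 48 h (adjusted p 0.248 to 0.88 over both genes). Just beyond S100A1, CHTOP, which encodes a chromatin and mRNA export protein, rose by 0.24 at 24 h (SE 0.06, adjusted p = 0.0173) and by 0.28 at 48 h (SE 0.06, adjusted p = 0.00418), and ILF2 was higher by 0.14 at 8 h (SE 0.04, adjusted p = 0.0321). S100P, the other called S100 gene, is on chromosome 4.

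**Figure D3:**
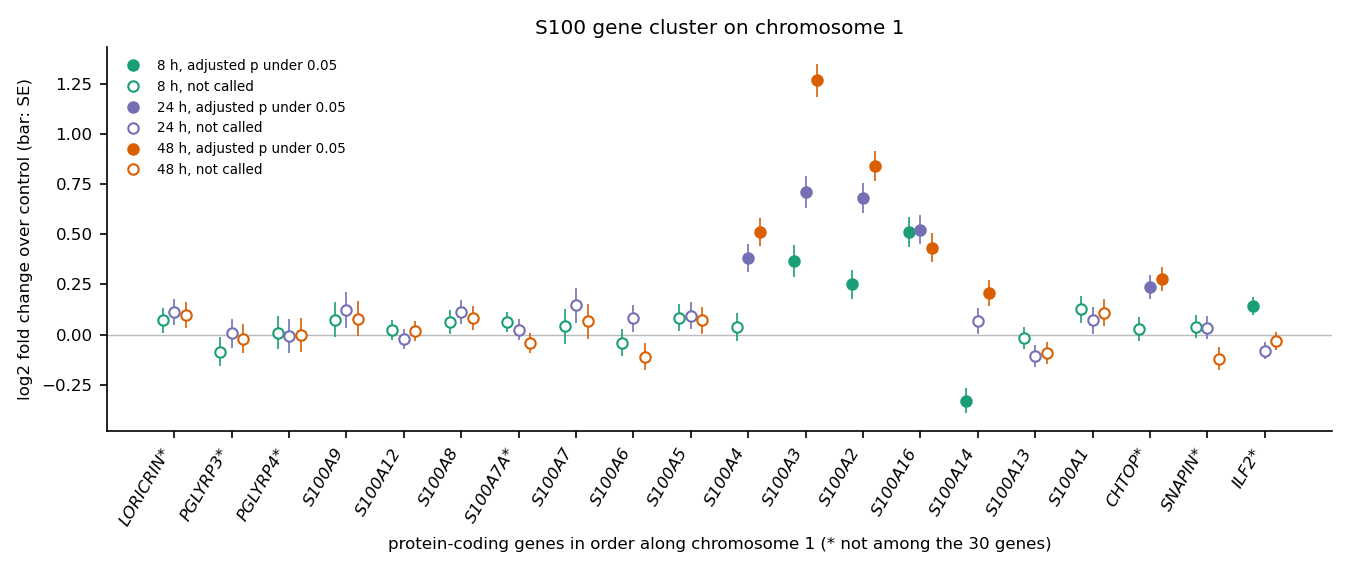
Log2 fold change over control (SE bars) at 8, 24 and 48 h for 20 protein-coding genes in their order along chromosome 1, evenly spaced, with genes that are not among the 30 marked by an asterisk. The 5 genes from S100A4 to S100A14 carry all filled points of the S100 genes shown.

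The promoters of S100A3 and S100A2, the S100 genes with the largest rise at 48 h, are shown because both neighbouring genes were called higher at each time. Between 24 and 48 h S100A3 rose further, whereas the change of S100A2 was not called. Promoter windows of 250 bases before a start site were taken from RefSeq for 28 of the 30 genes, 39 windows in all. The first window listed of each gene is printed 5′ to 3′, with matches to the motifs searched in capitals. For S100A3 it is chr1:153549259-153549508 and for S100A2 chr1:153565845-153566094, both GRCh38.p14, minus strand.
S100A3: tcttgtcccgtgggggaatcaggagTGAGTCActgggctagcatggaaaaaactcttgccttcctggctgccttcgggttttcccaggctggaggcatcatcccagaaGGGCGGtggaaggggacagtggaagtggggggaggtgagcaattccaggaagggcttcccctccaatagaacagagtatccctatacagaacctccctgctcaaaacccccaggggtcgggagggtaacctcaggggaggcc
S100A2: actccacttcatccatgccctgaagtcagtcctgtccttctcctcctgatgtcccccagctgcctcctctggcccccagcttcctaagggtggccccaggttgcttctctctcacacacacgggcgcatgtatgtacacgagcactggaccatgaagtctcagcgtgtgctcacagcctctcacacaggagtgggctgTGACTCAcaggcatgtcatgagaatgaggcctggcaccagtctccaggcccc
Both printed windows hold the AP-1 letters TGANTCA, beginning at -225 in S100A3 and at -52 in S100A2 relative to the start site. The S100A3 window also holds the GC box GGGCGG. Another window of S100A2, not printed, holds no TGANTCA. The windows of the called neighbours S100A4 and S100A16 hold none either. Both strands were searched for TGANTCA and for GGGCGG. They were also searched for the TATA box TATAAA, the interferon response element and an E2F-like site. Matches to different motifs could overlap. TGANTCA was in 5 of the 39 windows (12.8%, against 6.57% of all 35116 windows), those of S100A12, S100A5, S100A3, S100A2 and ANXA2, of which S100A12 and S100A5 were not called. TATAAA was in 14 windows (35.9% against 10.7%) and GGGCGG in 14 (35.9% against 42.6%). The interferon response element and the E2F-like site, written TTTNNCGC, were in 0 of the 39 windows, against 3.02% and 5.92% of all windows.

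Among the annexins, ANXA10, an annexin of gastric epithelium with little calcium binding, showed the largest change of the 30 genes. It gave 0.06, -0.08 and 0 on the control arrays, 0.08, -0.04 and 0.06 at 8 h, -0.53, -0.53 and -0.68 at 24 h and -1.94, -1.85 and -2.16 at 48 h. The 8 h arrays overlapped control, and the 24 and 48 h arrays lay in separate lower ranges. At 8 h the difference was 0.04 (SE 0.08, adjusted p = 0.772). ANXA10 fell at 24 h (-0.57, SE 0.08, adjusted p = 0.000175) and at 48 h (-1.98, SE 0.08, adjusted p = 2.23e-09), when it was 3.94-fold lower than control. The 48 h values also lay below the 24 h values (-1.41, SE 0.08, adjusted p = 5.26e-07).

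ANXA6, a long annexin with a duplicated core that binds cholesterol-rich membranes, changed direction. It gave 0, 0.02 and -0.22 on the control arrays, -0.31, -0.38 and -0.46 at 8 h, 0.45, 0.42 and 0.54 at 24 h and 0.97, 0.91 and 0.96 at 48 h. No 2 of the 4 groups overlapped. It fell by 0.31 at 8 h (SE 0.07, adjusted p = 0.00399), then stood above control by 0.54 at 24 h (SE 0.07, adjusted p = 0.000115) and by 1.01 at 48 h (SE 0.07, adjusted p = 2.98e-07), which is 2.02-fold. Against 8 h, the 48 h values were 2.51-fold higher (1.33, SE 0.07, adjusted p = 2.95e-08).

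The promoters of ANXA10 and ANXA6 are printed in the same way, as the annexins with the largest fall and the largest rise at 48 h. The ANXA10 window is chr4:168092287-168092536 on the plus strand and the ANXA6 window chr5:151157780-151158029 on the minus strand (GRCh38.p14).
ANXA10: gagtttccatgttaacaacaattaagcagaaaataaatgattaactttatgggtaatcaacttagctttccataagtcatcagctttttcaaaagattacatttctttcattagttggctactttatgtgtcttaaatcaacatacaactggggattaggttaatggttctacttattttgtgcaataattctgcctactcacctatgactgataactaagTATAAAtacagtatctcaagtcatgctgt
ANXA6: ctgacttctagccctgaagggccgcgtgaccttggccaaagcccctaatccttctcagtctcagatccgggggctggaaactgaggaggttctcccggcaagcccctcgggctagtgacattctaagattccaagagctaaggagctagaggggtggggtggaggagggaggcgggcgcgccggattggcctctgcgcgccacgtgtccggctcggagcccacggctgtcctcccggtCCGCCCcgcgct
The ANXA10 window holds TATAAA, beginning at -29, and the ANXA6 window holds the reverse complement of the GC box, beginning at -12. The ANXA6 gene has another window, not printed.

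ANXA9, an annexin that lacks the usual calcium sites, was lowest at 8 h. It gave 0, 0.01 and -0.01 on the control arrays, -1.08, -0.98 and -1.005 at 8 h, -0.31, -0.42 and -0.36 at 24 h and -0.22, -0.28 and -0.06 at 48 h. All treated arrays lay below control, and the 8 h arrays lay below all others. The fall was 2.03-fold at 8 h (-1.02, SE 0.06, adjusted p = 1.02e-07) and smaller at 24 h (-0.36, SE 0.06, adjusted p = 0.000881) and 48 h (-0.18, SE 0.06, adjusted p = 0.0362). The 48 h call was lost without any 1 control array and without 48 h replicate 1 or 2 (adjusted p 0.0677 to 0.151). From 8 to 24 h the values differed by 0.66 (SE 0.06, adjusted p = 7.61e-06), higher at 24 h.

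ANXA4, an epithelial annexin of secretory membranes, gave 0.02, -0.01 and 0 on the control arrays and -0.32, -0.40 and -0.44 at 8 h. At 24 h it gave -0.07, -0.13 and -0.14, and at 48 h 0.05, 0.03 and -0.15. The 8 h arrays lay below every other array, and at 48 h replicate 3 alone lay below control. It fell by 0.39 at 8 h (SE 0.06, adjusted p = 0.000239), while the differences were -0.12 at 24 h (SE 0.06, adjusted p = 0.201) and -0.03 at 48 h (SE 0.06, adjusted p = 0.78). The value at 48 h was above that at 8 h by 0.36 (SE 0.06, adjusted p = 0.000292).

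ANXA3, known from neutrophil granules and also made by epithelia, gave 0, 0.00 and -0.06 on the control arrays, 0.05, 0.02 and 0.03 at 8 h, 0.32, 0.32 and 0.31 at 24 h and 0.31, 0.27 and 0.15 at 48 h. It rose by 0.34 at 24 h (SE 0.05, adjusted p = 0.000365) and by 0.26 at 48 h (SE 0.05, adjusted p = 0.00131), with no overlap with control. At 8 h the difference was 0.05 (SE 0.05, adjusted p = 0.53).

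ANXA1, a glucocorticoid-induced protein whose fragments act on formyl peptide receptors, and ANXA2, a plasminogen-binding partner of S100A10, were higher by small amounts. ANXA1 gave 0, -0.01 and 0.05 on the control arrays, 0.05, 0.07 and 0.07 at 8 h, 0.19, 0.28 and 0.21 at 24 h and 0.19, 0.17 and -0.04 at 48 h. Its 24 h call (0.22, SE 0.06, adjusted p = 0.0253) was lost without control replicate 1 or 2 or any 1 of the 24 h arrays (adjusted p 0.0523 to 0.0908) and with each array centred (0.0612). At 48 h, where replicate 3 was the lowest array, the difference was 0.10 (SE 0.06, adjusted p = 0.304), and without that array 0.17 (adjusted p = 0.0178).

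ANXA2 gave 0, 0.00 and 0.03 on the control arrays, 0.13, 0.17 and 0.17 at 8 h, 0.20, 0.08 and 0.18 at 24 h and 0.07, 0.15 and 0.15 at 48 h, all treated arrays above control. It was called at 8 h (0.15, SE 0.05, adjusted p = 0.0351), and that call did not hold when 1 control array, 8 h replicate 2 or 8 h replicate 3 was left out (adjusted p 0.0586 to 0.105). At 24 h (0.15, adjusted p = 0.0507) and 48 h (0.12, adjusted p = 0.0942) it was not called, and without 24 h replicate 2 or 48 h replicate 3 the 24 h difference was called (adjusted p = 0.0235 and 0.0407). With array weights in limma it was called at 24 h (adjusted p = 0.00337) and at 48 h (adjusted p = 0.00367). The processed pseudogene ANXA2P3, a near copy whose probes may share target RNA with ANXA2, rose by 0.20 at 8 h (SE 0.06, adjusted p = 0.0281) and by 0.23 at 24 h (SE 0.06, adjusted p = 0.0198), so the value of ANXA2 itself is uncertain. Its other copies were not called, ANXA2P1 with 0.21, 0.17 and -0.04 and ANXA2P2 with 0.07, 0.15 and 0.05 at 8, 24 and 48 h (adjusted p 0.15 to 0.836 over both). A probe set naming both SNU13 and ANXA2 averaged 0.30, -0.03 and 0.04 at 8, 24 and 48 h, against -0.01 in control, and was not tested.

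The other 17 members, 13 S100 genes and 4 annexins, were not called in any of the 6 comparisons. Under the alternatives 8 of them were called against control at some time, 5 of these with array weights alone. The matching share of all genes over the alternatives was not counted. With array weights 7 of the 17 were called at 48 h, 1 higher and 6 lower, where 40.6% of all genes were called. The other 3 were ANXA7, called at 48 h without 24 h replicate 2, 48 h replicate 1 or 48 h replicate 2 (adjusted p 0.0449 to 0.0471), ANXA13, called at 8 h without 48 h replicate 1 or 3 (adjusted p 0.0321 to 0.0366), and S100A6, called at 48 h without 48 h replicate 3 (adjusted p = 0.0108). Their differences from control ran from -0.19 (ANXA7, 48 h) to 0.15 (S100A7, 24 h), and the 95% intervals, each for a single gene, stayed within -0.34 and 0.34. An unadjusted p under 0.05 was reached in 3 of these comparisons with control, by ANXA13, an intestinal annexin, at 8 h (-0.14, adjusted p = 0.0547), by ANXA7 at 48 h (adjusted p = 0.0574) and by S100A10 at 24 h (0.10, adjusted p = 0.171). For S100A10, the partner of ANXA2, the intervals at 8, 24 and 48 h were -0.05 to 0.15, 0.00 to 0.20 and -0.08 to 0.12. For S100A11, the partner of ANXA1, they were -0.13 to 0.07, -0.14 to 0.05 and -0.18 to 0.01.

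S100A8 and S100A9, which form calprotectin, and S100A12, all known from neutrophils and inflamed gut, gave no call. S100A8 differed by 0.06, 0.11 and 0.08, S100A9 by 0.07, 0.12 and 0.08 and S100A12 by 0.02, -0.02 and 0.02 at 8, 24 and 48 h. S100A6, or calcyclin, differed by -0.04, 0.08 and -0.11, and without 48 h replicate 3 its 48 h value was called lower than control (-0.20), than 24 h (-0.28, adjusted p = 0.00352) and than 8 h (-0.16, adjusted p = 0.0278). ANXA5, used as a probe of exposed phosphatidylserine, differed by -0.01, 0.06 and -0.03. The remaining members, S100A1, S100A5, S100A7, S100A13, S100B, S100G, S100Z and ANXA11, also lay within these limits. Because levels are lost, a gene that was not expressed cannot be told apart from one that was expressed and did not change.

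Between treated groups, more members were called between 24 and 8 h than between 48 and 24 h, and so were more of all genes. With array weights 12 and 8 members were called, where 28.6% and 32.1% of all genes were. At 24 h against 8 h 9 members were higher and 1 was lower (33.3% called, against 19.4% of all genes, 9.99% higher and 9.4% lower), the exception being ANXA10. At 48 h against 24 h 2 were higher, S100A3 and ANXA6, and 1 was lower, ANXA10 (3 of 30, against 10.1% of all genes, 5.26% higher and 4.86% lower), whereas with array weights 3 were higher and 5 lower (32.1% of all genes called). At 48 h against 8 h 9 were higher, again with ANXA10 alone lower (33.3% against 29.7%, 15.3% higher and 14.4% lower). The arrays of the 2 groups did not overlap for 13 members at 24 against 8 h (43.3%, against 33.3% of all genes), 9 at 48 against 24 h (9 of 30, against 24.0%) and 12 at 48 against 8 h (12 of 30, against 37.8%). Of the 19 S100 genes 5 were higher and 0 lower in that comparison, and of the 11 annexins 4 were higher and 1 lower. In bulk RNA a change in the share of cells that express a gene and a change of RNA per cell cannot be told apart.

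The families' surroundings were read from 5 lists, of which up to 4 called genes each are named. The lists were chosen with earlier results of these data known, so their called shares are no independent evidence. Of 26 receptors and binding partners, 7 were higher and 4 lower at 8 h, 2 and 1 at 24 h, and 4 and 1 at 48 h, which is 42.3%, 11.5% and 19.2% called against 24.2%, 16.7% and 25.3% of all genes. PLA2G4A, the cytosolic phospholipase A2 that annexin A1 is known to restrain, rose by 0.49 at 8 h (SE 0.11, adjusted p = 0.00653) and fell by 0.74 at 48 h (SE 0.11, adjusted p = 0.00035). TRPV6, an epithelial calcium channel that binds S100A10, rose by 0.73 at 48 h (SE 0.08, adjusted p = 3.34e-05). The S100-binding chaperone partners SUGT1 and FKBP4 rose, SUGT1 by 0.56 at 24 h (SE 0.08) and FKBP4 by 0.49 at 8 h (SE 0.05). The median of this list was 0.05, 0.03 and 0.05 at the 3 times.

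Of 8 plasminogen system genes, which make plasmin at surfaces where annexin A2 and S100A10 bind plasminogen, 4 rose at 8 h, 3 at 24 h and 4 at 48 h and 0 fell, also at an unadjusted p under 0.05 (limma), where 24.2%, 16.7% and 25.3% of all genes were called. The urokinase gene PLAU rose by 0.42, 0.96 and 1.52 at 8, 24 and 48 h (SE 0.08 each), and its receptor gene PLAUR by 0.61 at 48 h (SE 0.05). The protease inhibitor SERPINE2 rose by 0.66, 0.64 and 0.36 at the same times (SE 0.08 each), and PLAT, the tissue activator, by 0.35 at 48 h (SE 0.06). The list median was 0.10 at 8 h, 0.12 at 24 h and 0.22 at 48 h, beside medians of 0.02, 0.02 and 0.01 for all genes.

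Of 20 membrane repair genes 5 rose and 3 fell at 8 h, 7 rose and 0 fell at 24 h, and 9 rose and 3 fell at 48 h, which is 8, 7 and 12 genes called where 24.2%, 16.7% and 25.3% of all genes were, with medians of 0.04, 0.06 and 0.08. The caveolin CAV1 rose by 2.30 at 48 h (SE 0.10, adjusted p = 7.79e-09), the caveolar coat gene CAVIN1 by 1.03 at 24 h (SE 0.05) and the ferlin MYOF by 0.43, 0.80 and 1.01 at 8, 24 and 48 h (SE 0.08 each). SYT7, a calcium sensor of lysosome exocytosis, fell by 0.41 at 8 h (SE 0.06) and rose by 0.71 at 48 h (SE 0.06).

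Of 29 other calcium sensors and calcium-dependent lipid binders 4 rose and 4 fell at 8 h, 4 and 3 at 24 h, and 4 and 6 at 48 h (27.6%, 24.1% and 34.5% called, against 24.2%, 16.7% and 25.3% of all genes), with medians of -0.01, 0.04 and -0.02. The neuronal calcium sensor VSNL1 was higher by 1.38 at 48 h (SE 0.12), and CPNE7, a copine, by 0.49 at 48 h (SE 0.05). RCN1, a calcium-binding protein of the endoplasmic reticulum, fell by 0.56 at 48 h (SE 0.06), and the calmodulin-like CALML4 of the brush border by 0.50 at 8 h (SE 0.06).

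The epidermal differentiation complex encodes cornified envelope proteins next to the S100A genes on chromosome 1. The list read here also holds genes of other kinds, such as PGLYRP3, PGLYRP4 and S100A7A. Of 43 of its genes, 4 rose at 8 h, 3 at 24 h and 3 at 48 h, and 0 fell (9.3%, 6.98% and 6.98% called, against 24.2%, 16.7% and 25.3% of all genes), with medians of 0.03, 0.04 and 0.03. At an unadjusted p under 0.05 in limma 1 was lower at 48 h. The small proline-rich genes SPRR1A and SPRR1B both rose, SPRR1A by 0.62 at 48 h (SE 0.07) and SPRR1B by 0.59 at 24 h (SE 0.06), and SPRR3 rose by 0.37 at 48 h (SE 0.07). LCE1C was called at 8 h (0.22, SE 0.07, adjusted p = 0.0323), a call lost without control replicate 1 or 2 or 8 h replicate 2 or 3 (adjusted p 0.0549 to 0.148). Some members of the SPRR and LCE families are near-identical copies, so the single values of such genes are uncertain.

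**Figure D4:**
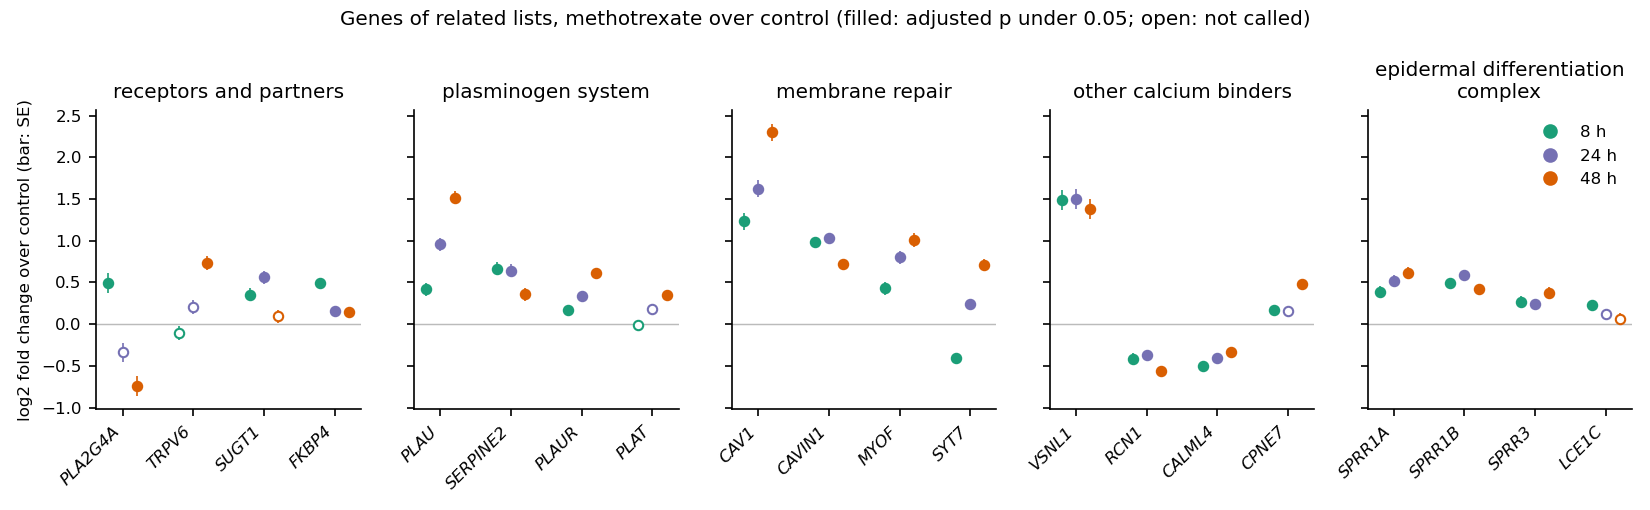
Log2 fold change over control (SE bars) at 8, 24 and 48 h for the 4 named genes of each of the 5 lists, filled where called. PLAU and CAV1 rise with time to 1.52 and 2.30 at 48 h, and PLA2G4A is above control at 8 h and below it at 48 h.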

How the data were processed

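Gene expression was measured on 12 arrays of HT29 cells, grouped by their titles into control and 8, 24 and 48 h of 70 nM methotrexate, 3 arrays each. The authors deposited 1 log2 value per probe set and array; RMA and hg19 are named, without versions, per the submitters' processing notes. The control arrays have a median of 0 in each of the 28869 probe sets, a centring step not given in the sources used here. Base 2 was assumed because RMA gives it.

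Gene names came from GEO's platform annotation, and probe sets with 1 gene symbol were averaged per gene, which left 18377 genes. All 12 arrays entered 1 linear model with a mean per group in limma 3.58.1 (R 4.3.3), with 8 residual and 4.71 prior degrees of freedom. The 6 pairwise comparisons were tested two-sided with Benjamini-Hochberg adjustment over all genes, at 0.05. The number of arrays limits the precision, with SEs of 0.04 to 0.09 for the 30 genes. Python 3.11.15 drew the figures. The fit was tested on simulated data.

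The members, lists and tests were chosen with earlier results of these data known. Values are given on every array for members called against control, at most 14, and up to 4 called genes are named per list, those with the largest change. CHTOP, ILF2 and the ANXA2 pseudogenes were chosen after their values were seen. Alternatives were a replicate block, array weights, array centring, a robust prior, fits of 2 groups, single probe sets, stricter thresholds, wider members and leaving out each array. Same-numbered arrays of different groups had residual correlations of -0.452 to 0.472, over 0.1 in 11 of 18 pairs. These values do not settle whether same-numbered arrays were paired. The main fit did not take the numbers as pairs, and the replicate block was run as an alternative.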

Additional observations from a re-analysis of the deposited data

Results flagged for a closer look

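The difference from control changed between 8 and 48 h for 10 of the 30 genes (limma contrast, adjusted p under 0.05). The share of 33.3% was near the 29.7% of all genes. Control cancels in this contrast, so it is the comparison of 48 h with 8 h already given. The 48 h difference minus the 8 h difference was -2.02 for ANXA10, 1.33 for ANXA6, 0.90 for S100A3, 0.84 for ANXA9 and 0.59 for S100A2. It was 0.54 for S100A14, 0.47 for S100A4, 0.36 for S100P, 0.36 for ANXA4 and 0.21 for ANXA3. ANXA6 and S100A14 were below control at 8 h and above it at 48 h, and the 48 h call of S100A14 against control was lost without single arrays.

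A signal also appeared in probe sets outside the comparisons. The 3 probe sets that name both ANXA8L1 and ANXA8, near-identical copies, averaged 0.35, 0.41 and 0.39 at 48 h, when the highest control array of each was at 0.03, 0.03 and 0.04. Over the 3 probe sets the arrays lay between 0.04 and 0.21 at 8 h, between 0.16 and 0.35 at 24 h and between 0.23 and 0.53 at 48 h, against -0.05 to 0.04 in control. These differences were not tested, and the probe sets do not tell the genes apart.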

How the results depend on the processing

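Of 27 calls of single members against control, 22 were kept under every alternative run in which that gene was refitted, and 5 were lost under at least 1, those of S100A2 and ANXA2 at 8 h, ANXA1 at 24 h, and S100A14 and ANXA9 at 48 h. ANXA9 at 48 h was also lost in a fit of only the 2 groups (adjusted p = 0.0940). No called value changed sign. Among the 13 genes called against control, the values not called that did were S100A4 at 8 h, which ran between -0.0083 (without control replicate 2) and 0.0906 (without control replicate 1), and ANXA4 at 48 h, which was 0.0224 with array weights and ran between -0.068 (without 48 h replicate 1) and 0.0302 (without 48 h replicate 3). Leaving out single arrays gave 7 to 10 members called at 8 h, 8 to 11 at 24 h and 7 to 10 at 48 h against control, 9 to 11 for 24 against 8 h, 3 to 4 for 48 against 24 h, 10 to 11 for 48 against 8 h and 11 to 13 by the F test. Of all 18377 genes the same runs called 3403 to 5161, 2102 to 3938 and 3704 to 4749 at 8, 24 and 48 h against control. Between treated groups, in the same order, they called 2726 to 4294, 1103 to 2149 and 4726 to 5756 genes, and by the F test 6261 to 7720. Of the 51 differences from control of the other 17 genes, 13 changed sign under at least 1 alternative, the largest of them 0.0811 in size. With array weights 14 members were called at 24 h, 19 at 48 h and 8 for 48 against 24 h, where 33.1%, 40.6% and 32.1% of all genes were. The cause was not tested. Asking for at least a 1.5-fold change left 1, 2 and 4 at 8, 24 and 48 h against control, 3 for 24 against 8 h, 1 for 48 against 24 h and 5 for 48 against 8 h, since most changes are smaller, where 3.25%, 2.41%, 3.74%, 2.37%, 0.74% and 5.62% of all genes were left in the same order. With the replicate number as a block, 9, 10 and 10 members were called at 8, 24 and 48 h, where 25.7%, 18.4% and 27.2% of all genes were. Among them were S100P at 24 h (adjusted p = 0.0472) and ANXA7 at 48 h (adjusted p = 0.0489). A filter on dim probe sets was not run, as levels are lost, and a fit of 2 groups gives no F test. Signal over background is unknown for every gene.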
